A study of Mus musculus with 8 samples.

Results

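The genes examined here are 10 genes of tissue macrophages, taken by name from a table of 26008 genes measured by RNA-seq in colonic biopsies. The genes, chosen with earlier results of these data known, are Csf1r, Adgre1, C1qa, C1qb, C1qc and Mertk, which are carried by macrophages in general, and Cd163, Mrc1, Timd4 and Folr2, which are used as marks of long-lived resident macrophages, including those of the muscular layer. The first 6 are called pan-macrophage genes and the last 4 resident type genes. All 10 were found in the table, with a value above 0 in each of the 8 libraries, and all 10 passed the filter of a mean normalized count of at least 10, which left 19127 genes for the tests.

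Each library came from the colon of 1 male bone marrow chimera. Recipients were wild-type C57BL/6JRj mice, lethally irradiated at 7 weeks of age and engrafted with marrow of donors aged 9 to 11 weeks. The donors were either proenkephalin-knockout (Penk-/-, a line with a neomycin cassette in exon 2 of Penk, 4 chimeras) or wild-type littermates (Penk+/+, 4 chimeras), and colons were examined 18 to 21 weeks after the graft. Irradiation and grafting were thus shared by both groups, and the genotype was that of the donor marrow only, so that epithelium, muscle and nerves carried an intact Penk gene in all 8 mice. Chimerism was measured by the study in bone marrow and not in the colon, so the share of colonic macrophages that came from the donor was not known. Replicates 1 to 4 of a genotype were different mice.

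Macrophages of the colon depend on the receptor CSF1R, the product of Csf1r, which binds the growth factors CSF1 and IL-34. Those under the epithelium are replenished from blood monocytes and take up bacteria and dying epithelial cells, whereas those of the muscular layer and around vessels and nerves include long-lived cells. C1qa, C1qb and C1qc encode the A, B and C chains of C1q, which starts the classical complement pathway and tags dying cells for uptake. Adgre1 encodes F4/80, Mertk a receptor tyrosine kinase that engulfs dying cells through bridging proteins, Cd163 the scavenger receptor of haemoglobin bound to haptoglobin, Mrc1 the mannose receptor CD206, Folr2 a folate receptor and Timd4 the phosphatidylserine receptor TIM-4.

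The macrophage genes lay on 7 chromosomes of GRCm39. The C1q genes were neighbours on chromosome 4, on the minus strand within 20.2 kb (136606009 to 136626161), in the order C1qb, C1qc and C1qa, and 132 Mb from Penk. The bases before the start are shown for the macrophage genes with a match to AGGAAGT, or ACTTCCT on the other strand. Transcription factors of the ETS family such as PU.1 can bind this core. RefSeq promoter sequences were used for 7 of the 10 genes, from which the 250 bases before each start were searched. A match was found in 4 genes (C1qb, C1qc, Mrc1 and Folr2) and none in Mertk, Cd163 and Timd4, while 7.69% of the 32851 promoter windows of this length held a match. A second window of Folr2, before another start, held none. The motif was chosen after these windows had been seen, and a match is a description of letters only. The sequences run 5′ to 3′ on the gene's strand, matches are in capitals, and only bases outside the annotated gene are printed. Distances are counted from the RefSeq start, which for C1qc, Mrc1 and Folr2 lies inside the annotated gene. For these genes a match is thus nearer to the end of the printed bases than the distance given. They were located in GRCm39 by their exact sequence, and Mertk is shown as an example without a match. Cd163, also without a match, varied with Csf1r over the 8 libraries (r = 0.802). A relation of the motif to the levels of the genes was not tested.
C1qb (chr4:136613512-136613761, minus strand, match 53 bases before the start): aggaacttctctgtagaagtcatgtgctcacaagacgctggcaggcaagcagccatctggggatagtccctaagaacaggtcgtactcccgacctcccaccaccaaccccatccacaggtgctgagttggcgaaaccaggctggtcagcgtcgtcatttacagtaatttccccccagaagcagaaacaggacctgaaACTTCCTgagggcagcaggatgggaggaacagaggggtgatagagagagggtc
C1qc (chr4:136620377-136620475, minus strand, match 195 bases before the start): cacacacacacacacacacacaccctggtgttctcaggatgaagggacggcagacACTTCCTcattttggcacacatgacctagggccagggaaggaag
Mrc1 (chr2:14233975-14234150, plus strand, match 211 bases before the start): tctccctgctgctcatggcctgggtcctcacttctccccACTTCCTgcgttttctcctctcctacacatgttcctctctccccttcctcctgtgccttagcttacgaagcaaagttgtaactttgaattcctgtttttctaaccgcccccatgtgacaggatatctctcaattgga
Folr2 (chr7:101506402-101506647, minus strand, matches 137 and 82 bases before the start): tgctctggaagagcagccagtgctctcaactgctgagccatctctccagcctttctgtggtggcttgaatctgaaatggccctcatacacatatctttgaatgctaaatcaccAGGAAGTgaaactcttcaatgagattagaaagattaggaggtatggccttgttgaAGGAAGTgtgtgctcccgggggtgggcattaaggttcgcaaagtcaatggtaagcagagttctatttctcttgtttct
Mertk (chr2:128540585-128540728, plus strand, no match): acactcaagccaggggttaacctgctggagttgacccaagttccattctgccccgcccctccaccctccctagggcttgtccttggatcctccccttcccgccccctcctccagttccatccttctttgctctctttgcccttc

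The libraries held 33.1 to 50.7 M reads counted on genes (median 38.5 M). The normalized count of Penk ranged from 453 to 616 in Penk-/- and from 473 to 636 in Penk+/+ chimeras. Transcripts of Pbsn, a secretory protein of the prostate, ranged from 0 to 111024 normalized counts and were far above the other libraries in Penk-/- replicate 3 and Penk+/+ replicate 4, so the values below are also given without these libraries where they turn. Biopsies also differed in the share of muscle and mucosa. A tissue score, the mean log2 level of 6 smooth muscle markers minus that of 6 epithelial markers, each centred on its mean over the 8 libraries, was -0.53, 0.49, 0.57 and -0.01 in Penk-/- replicates 1 to 4 and -0.45, -0.15, 0.33 and -0.26 in Penk+/+ replicates 1 to 4. The genotypes overlapped (0.13 ± 0.51 against -0.13 ± 0.33, SD, n = 4 each, exact permutation test, two-sided, p = 0.4).

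None of the macrophage genes differed between the genotypes after correction over all genes. The 5 pan-macrophage genes other than Mertk had higher means in Penk-/- chimeras, by 0.24 to 0.30 on the log2 scale, and Mertk had a lower mean. The size of the former differences rested on Penk+/+ replicate 1, the library lowest in all 5 genes, without which they were 0.03 for Csf1r, 0.09 for Adgre1, 0.12 for C1qa, 0.17 for C1qb and 0.12 for C1qc. Of the resident type genes, Mrc1 and Folr2 had higher and Cd163 and Timd4 lower means. With limma on log2(normalized count + 1), 0 of the 10 genes had an adjusted p below 0.05, as did 0.0% of the 19127 genes tested, and 1 (Mertk) had an unadjusted p below 0.05, which 9.63% of all genes tested had. For none of the 10 did the values of the genotypes separate completely, which they did for 5.63% of all genes tested. The median log2 fold change was 0.24 over the 10 genes, with 7 higher and 3 lower in Penk-/- chimeras, and 0.01 over all genes tested. In whole biopsies, a change in the number of macrophages and a change in the RNA per macrophage cannot be told apart.

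**Figure D1:**
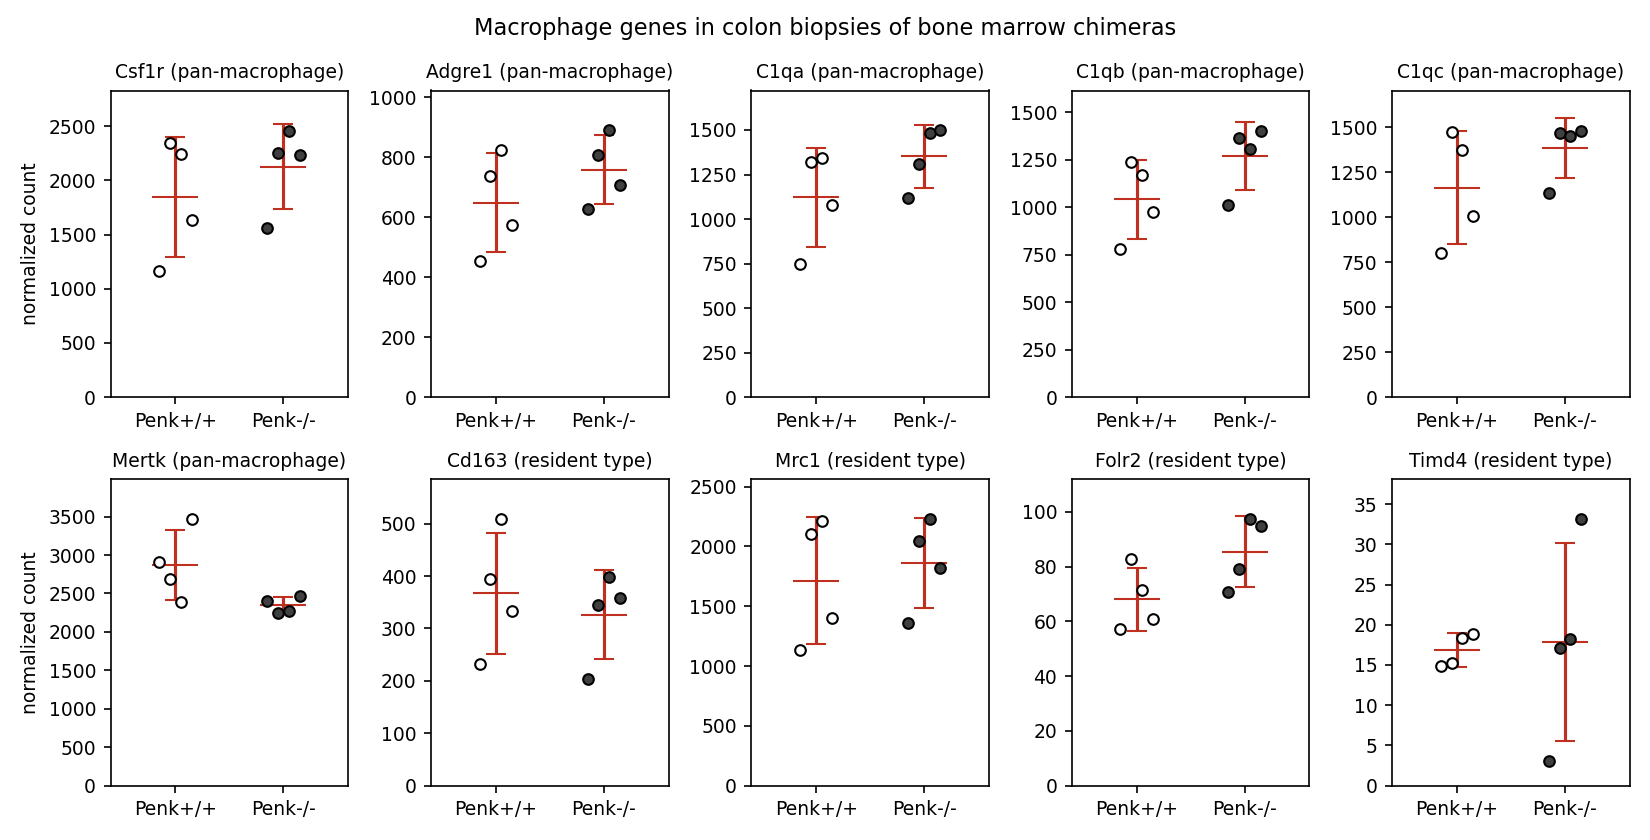
Normalized counts of the 10 macrophage genes in each mouse (y axis, starting at 0), with Penk+/+ chimeras as open and Penk-/- chimeras as filled circles, and mean and SD in red (n = 4 each). The genotypes overlap for every gene, and the lowest Penk-/- value is that of replicate 1 for every gene but Mertk.

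Csf1r was counted at 1559, 2254, 2460.4 and 2237 in Penk-/- replicates 1 to 4 and at 1162, 2349.6, 2248 and 1631 in Penk+/+ replicates 1 to 4 (normalized counts throughout). The values formed a low group of 3 libraries, Penk-/- replicate 1 and Penk+/+ replicates 1 and 4, and a narrow high group of the other 5. The means were 2128 ± 392 and 1848 ± 556 (SD, n = 4 each). Their log2 fold change was 0.24 (standard error 0.23, limma adjusted p = 0.780). Reads of Csf1r may include some of Hmgxb3, a gene on the opposite strand whose exons cover 19.8% of its exonic bases, since the strand setting of the counting was not given in the sources used here.

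Adgre1 values were 628, 808, 889 and 708 in Penk-/- and 456, 737, 825 and 574 in Penk+/+ replicates 1 to 4. The same 3 libraries were the lowest for this marker, which is often used to sort mouse macrophages. Its log2 fold change was 0.25 (standard error 0.18, limma adjusted p = 0.705), with means of 758 ± 114 against 648 ± 165 (SD, n = 4 each).

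The chains of C1q are assembled into a single protein. Their transcripts kept nearly fixed proportions over the 8 libraries. C1qa was counted at 1119, 1309.6, 1485 and 1497 in Penk-/- and at 745, 1319, 1341 and 1079.5 in Penk+/+ replicates 1 to 4. C1qb had 1009.8, 1365, 1306 and 1404 in Penk-/- and 780.3, 1239, 1172 and 977 in Penk+/+ replicates 1 to 4. C1qc had 1136, 1469, 1450.1 and 1482 in Penk-/- and 801, 1473, 1373 and 1004 in Penk+/+ replicates 1 to 4. Penk+/+ replicate 1 was the lowest library for each chain. The highest was a Penk-/- library, replicate 4, for each chain. The ratio of C1qa to C1qb stayed between 0.955 and 1.14, and that of C1qc to C1qb between 1.03 and 1.19, over libraries in which C1qb itself varied 1.80-fold. Such constancy was not particular to C1q. The coefficient of variation over all libraries was 6.90% for C1qa over C1qb and 6.20% for Mrc1 over Csf1r. C1qb gave the smallest p of the 3 chains. Its log2 fold change was 0.30 (standard error 0.16, 95% confidence interval -0.05 to 0.65, limma adjusted p = 0.591), and the value was higher in the Penk-/- mouse in 14 of the 16 pairs of a Penk-/- and a Penk+/+ mouse. C1qa and C1qc had log2 fold changes of 0.30 and 0.28 (limma adjusted p = 0.645 and 0.662).

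Mertk was the macrophage gene with the smallest p, and the pan-macrophage gene that ran the other way. Which cells of the biopsies carried its RNA was not tested, so its level cannot be assigned to macrophages. Its values were 2404, 2244, 2274 and 2471 in Penk-/- and 2914, 2690.0, 2389.6 and 3468 in Penk+/+ replicates 1 to 4. The Penk-/- values lay close together, whereas Penk+/+ replicate 4 stood above all others and Penk+/+ replicate 3 lay within the Penk-/- range. The means were 2348 ± 107.2 and 2865 ± 456 (SD, n = 4 each), and the log2 fold change was -0.27 (standard error 0.10, 95% confidence interval -0.51 to -0.04, limma adjusted p = 0.453). It was -0.18 without Penk+/+ replicate 4 and -0.16 without the libraries highest in Pbsn. The unadjusted p of limma was then 0.0530 and 0.0954, against 0.0258 with all libraries. By the exact permutation test over the 70 assignments of 4 of the 8 libraries, two-sided p was 0.0857, where the design allows 0.0286 at best.

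Cd163 had 204, 346, 398 and 358 normalized counts in Penk-/- and 233, 395, 509 and 333 in Penk+/+ replicates 1 to 4. The highest value was in Penk+/+ replicate 3 and the lowest in Penk-/- replicate 1. The log2 fold change of -0.16 (standard error 0.26, limma adjusted p = 0.892) had a 95% confidence interval of -0.75 to 0.44, and it became 0.05 without Penk-/- replicate 1 and 0.02 without Penk+/+ replicate 3.

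Mrc1 values were 1360.2, 2041, 2229 and 1823 in Penk-/- and 1130.1, 2105, 2213 and 1405 in Penk+/+ replicates 1 to 4. They followed Csf1r closely, with the same 3 low libraries. The log2 fold change was 0.15 (standard error 0.23, limma adjusted p = 0.878), turned to -0.03 without Penk+/+ replicate 1 and to -0.02 without the libraries highest in Pbsn.

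Folr2 was found at 70.7, 79.0, 97.4 and 95.02 normalized counts in Penk-/- and 57.2, 82.7, 71.5 and 60.9 in Penk+/+ replicates 1 to 4. Penk+/+ replicate 2 lay among the Penk-/- values, Penk+/+ replicate 3 at their lower end, and Penk+/+ replicates 1 and 4 below them all. The means were 85.5 ± 12.8 and 68.1 ± 11.5 (SD, n = 4 each), and the log2 fold change was 0.33 (standard error 0.18, 95% confidence interval -0.07 to 0.72, limma adjusted p = 0.603). Exons of Gm10602, a noncoding gene on the opposite strand with 61.8 to 113 normalized counts, cover 61.2% of the exonic bases of Folr2, so that its reads are uncertain by the same limit of strand.

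Timd4 was close to the limit of detection. It was counted at 3.03, 17.2, 18.2 and 33.1 in Penk-/- and 14.9, 15.2, 18.4 and 18.9 in Penk+/+ replicates 1 to 4. Penk-/- replicates 1 and 4 held both its lowest and its highest value, while the Penk+/+ mice lay close together. These values stood for 3, 15, 25 and 30 reads in Penk-/- and 12, 16, 18 and 22 reads in Penk+/+ replicates 1 to 4. The exact 95% Poisson interval was 0.619 to 8.77 reads in Penk-/- replicate 1 and 20.2 to 42.8 reads in replicate 4, which covers counting error only. The log2 fold change of -0.26 had a standard error of 0.56 (limma adjusted p = 0.919) and became 0.36 without Penk-/- replicate 1. Its 95% confidence interval, which reflects the spread between mice, ran from -1.53 to 1.003.

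For most of the genes, counting error was small beside the spread between mice. The coefficient of variation between mice of a genotype ranged from 12.7% for Mertk to 29.2% for Cd163 among the 9 genes other than Timd4. Counting alone would give 1.96% to 5.35% for 8 of them. For Folr2 counting would give 11.4% against a measured 15.9%, and for Timd4 24.1% against a measured 50.8%, so that counting was a larger part of the spread of these genes.

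Per kilobase of the canonical transcript, the mean levels over the 8 mice were ordered C1qa, C1qc, Mertk, C1qb, Csf1r, Mrc1, Adgre1, Cd163, Folr2 and Timd4. C1qa stood at 1138 normalized counts per kilobase (686 to 1377 over the mice) and Timd4 at 7.90 (1.38 to 15.1). Csf1r (329, from 192 to 407) and Mrc1 (326, from 206 to 406) were at nearly the same level per kilobase and did not differ beyond their spread. Cd163 (78.6, from 46.2 to 115) and Folr2 (69.96, from 52.1 to 88.7) overlapped in the same way, as did C1qc (688, from 433 to 800) and Mertk (560, from 482 to 745).

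To compare resident type with pan-macrophage genes within each mouse, the mean centred log2 level of the 6 pan-macrophage genes was subtracted from that of the 4 resident type genes. The difference was -0.63, -0.02, 0.10 and 0.22 in Penk-/- and 0.11, 0.01, 0.17 and 0.05 in Penk+/+ replicates 1 to 4. All but Penk-/- replicate 1 lay within a narrow range, and the genotypes overlapped. The means were -0.08 ± 0.38 and 0.08 ± 0.07 (SD, n = 4 each), a difference of -0.17. It was 0.01 without Penk-/- replicate 1. It also moved with the genes taken, to -0.08 without Timd4, -0.26 without Mertk and -0.17 without both, with overlap of the genotypes each time. No test was made on this mean, since the genes were chosen with results of these data known.

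The resident type genes did not behave alike when each was divided by Csf1r of the same library. The ratio of Cd163 to Csf1r was 0.131, 0.153, 0.162 and 0.160 in Penk-/- and 0.200, 0.168, 0.226 and 0.204 in Penk+/+ replicates 1 to 4. Every Penk-/- value lay below every Penk+/+ value, with means of 0.151 ± 0.0142 and 0.200 ± 0.0241 (SD, n = 4 each). Of the 19126 other genes tested, 1.35% separated the genotypes completely as a ratio to Csf1r, and this ratio was singled out after its values were seen. Cd163 also separated the genotypes as a ratio to Adgre1 and to C1qa, but not to C1qb, C1qc or Mertk. The share of all genes that did so as a ratio to Adgre1 or C1qa was not computed. Of the 24 ratios of a resident type to a pan-macrophage gene, these 3 of Cd163 separated the genotypes and no others. They are not separate results, since Csf1r, Adgre1 and C1qa varied together (r of 0.916 to 0.956 between them). The ratio of Mrc1 to Csf1r was 0.875 ± 0.0429 in Penk-/- and 0.929 ± 0.0593 in Penk+/+ chimeras, and that of Folr2 to Csf1r 0.0406 ± 0.00439 and 0.0384 ± 0.00758 (SD, n = 4 each), with overlap in both. The ratio of Mertk to Csf1r varied most among the well-counted genes, from 0.924 in Penk-/- replicate 3 to 2.51 in Penk+/+ replicate 1.

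**Figure D2:**
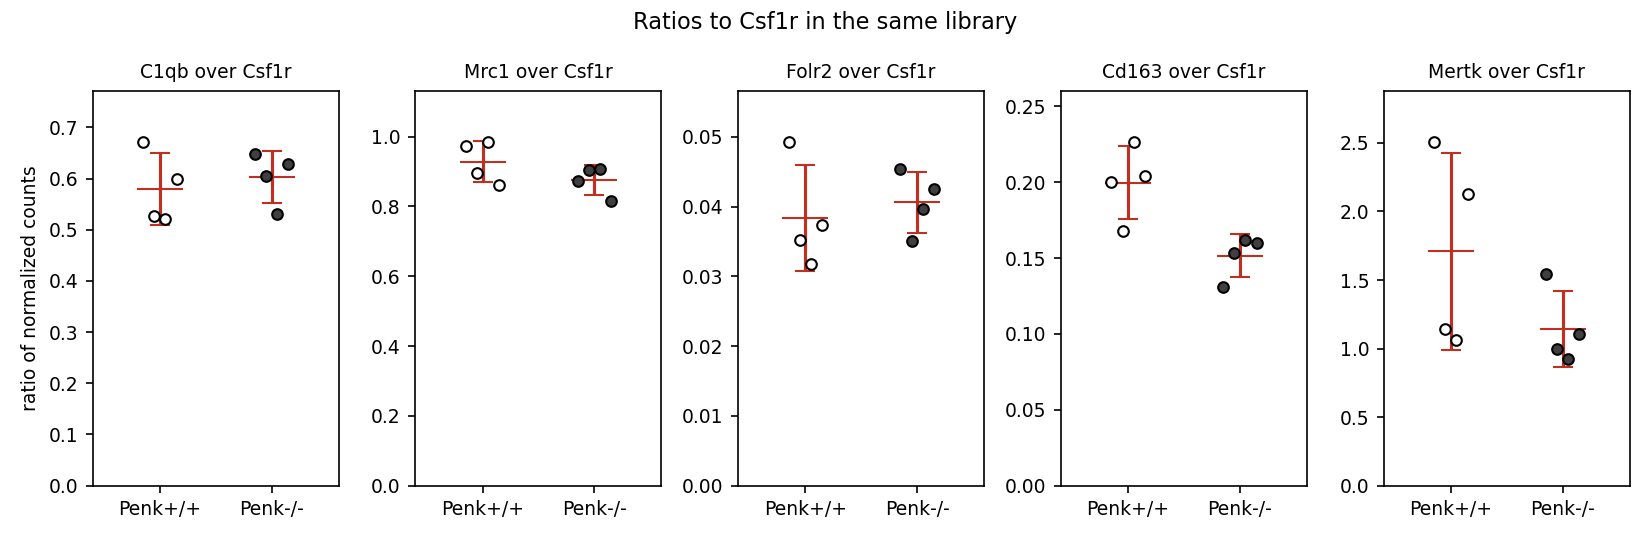
Ratio of the normalized counts of 5 macrophage genes to Csf1r of the same library (y axis, starting at 0), with Penk+/+ chimeras as open and Penk-/- chimeras as filled circles, and mean and SD in red (n = 4 each). Cd163 over Csf1r is at 0.131 to 0.162 in Penk-/- and 0.168 to 0.226 in Penk+/+ chimeras without overlap, whereas the others overlap.

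Across the 8 mice, the macrophage genes other than Mertk and Timd4 varied together. Over the 28 pairs of these 8 genes, Pearson's r of the log2 levels ranged from 0.471 to 0.974 with a median of 0.884, and 22 pairs had an adjusted p below 0.05 (exact permutation over 40320 pairings, two-sided, adjusted over all 45 pairs). By Spearman's rho 7 pairs did. The share among pairs of all genes was not computed, so these counts cannot be read as particular to macrophage genes. With Csf1r, 569 of all genes tested had r above 0.9. C1qb and C1qc had r = 0.974 and rho = 0.929 (exact permutation, adjusted p = 0.00469 and 0.0251), and r was 0.926 without the 2 libraries farthest from the median. Csf1r and Mrc1 had r = 0.973 and rho = 0.929 (exact permutation, adjusted p = 0.00469 and 0.0251), and 0.940 without such libraries. Both pairs rested in part on the step between the 3 low libraries and the other 5, and were not tested within each part. The weakest of the 28 pairs was Cd163 with Folr2 (r = 0.471, rho = 0.667, exact permutation, adjusted p = 0.309 and 0.163), and its r was 0.0340 without such libraries. With Timd4, the other genes but Mertk had r of 0.226 to 0.673, with 0 of 8 pairs below 0.05 after adjustment.

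Mertk went against this pattern. Its r was negative with all but Timd4, from -0.721 with Adgre1 to -0.214 with Cd163, and none of its 9 pairs had an adjusted p below 0.05 (exact permutation). It was highest where Csf1r was low, in Penk+/+ replicates 1 and 4, whereas in Penk-/- replicate 1, the other library low in Csf1r, it lay within the range of the Penk-/- mice. The genes with levels most like Mertk over the 8 libraries, looked up after its values were seen, were Prdx6 (r = 0.976), Gm15848 (0.9747), BC004004 (0.971), Acaa1a (0.966) and Crebl2 (0.966). Acaa1a is a peroxisomal enzyme of fatty acid oxidation and Prdx6 a peroxiredoxin.

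By the same measure, Csf1r was most like Icam1 (r = 0.997), Itga11 (0.992), Sspn (0.992), Fcgr2b (0.991) and Slco2b1 (0.991). Icam1 is an adhesion molecule, Itga11 a collagen-binding integrin of fibroblasts and Fcgr2b the inhibitory Fc receptor. C1qb was most like Ms4a4d (0.983), Bgn (0.983), Phldb2 (0.981), Tnfaip6 (0.977) and Col5a2 (0.976), of which Bgn and Col5a2 are genes of the connective tissue matrix. Cd163 was most like Ldb2 (0.984), Col13a1 (0.981), Nav2 (0.978), Dnajc27 (0.965) and B3galnt1 (0.964), and Folr2 most like Pear1 (0.982), Rarres1 (0.9746), Pi15 (0.969), Dll4 (0.966) and Tmem273 (0.963). These coefficients describe 8 libraries that share the make-up of each biopsy, and 569 genes had r above 0.9 with Csf1r, 307 with C1qb, 151 with Cd163, 59 with Mertk and 58 with Folr2.

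**Figure D3:**
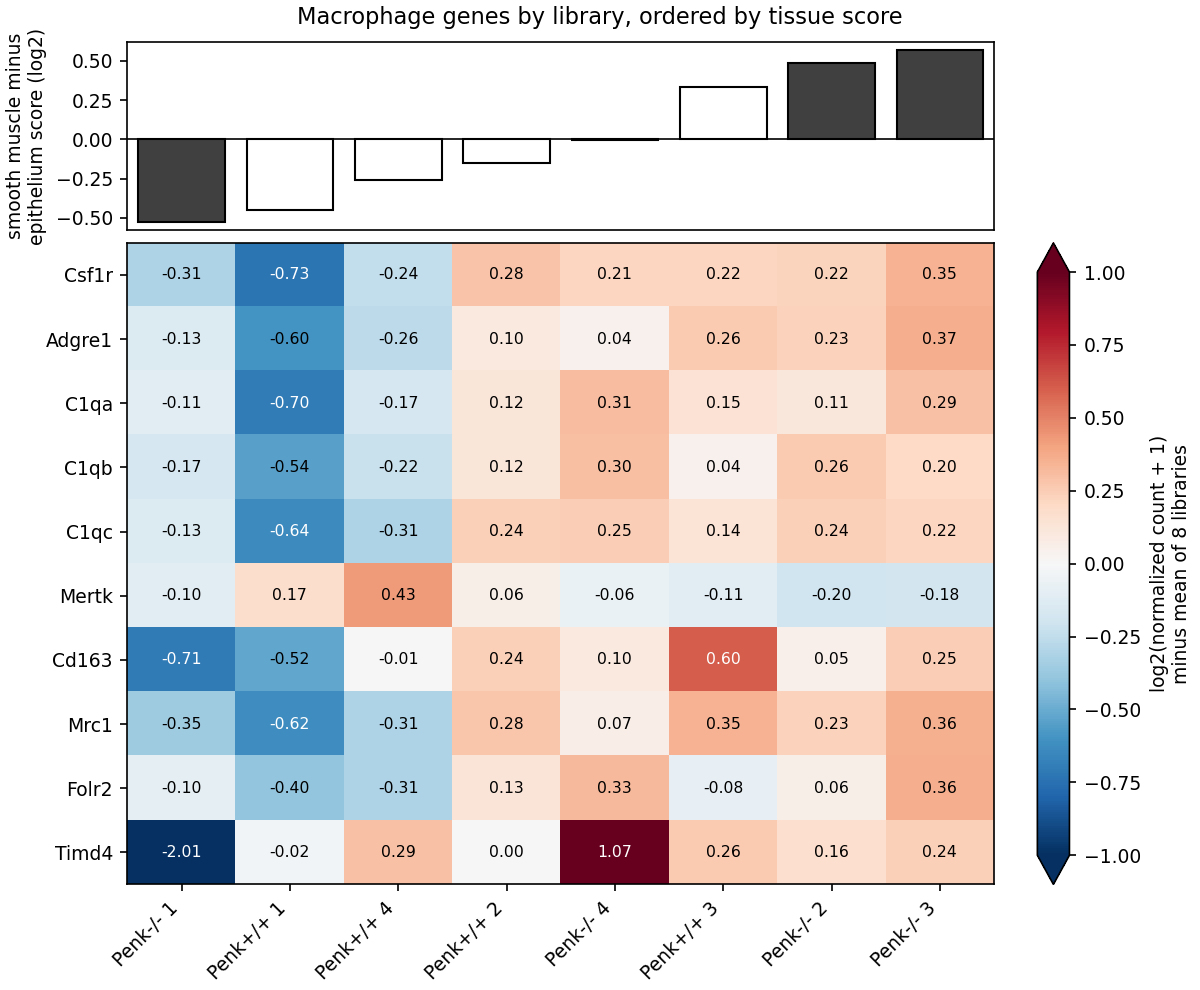
Levels of the macrophage genes in each library, as log2(normalized count + 1) minus the mean of the 8 libraries (colours, limited to -1 and 1, with the value in each cell), below the tissue score of the library (bars, filled for Penk-/- and open for Penk+/+ chimeras), by which libraries are ordered. The 3 libraries with the lowest score are low in all pan-macrophage genes but Mertk, and Timd4 is at -2.01 in Penk-/- replicate 1.

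The levels of the macrophage genes were compared with the share of muscle and epithelium in the biopsies, and no gene passed the test after adjustment. Pearson's r with the tissue score over the 8 libraries was positive for 9 of the 10 genes. It was 0.852 for Adgre1 (rho = 0.881, exact permutation, two-sided, p = 0.00583 and 0.00724, adjusted over the 10 genes p = 0.0583 and 0.0513), and 0.782 without the 2 libraries farthest from the median of the score. For Mrc1 it was 0.845 (rho = 0.857, exact permutation, p = 0.0142 and 0.0107, adjusted p = 0.0689 and 0.0513), and 0.848 without these libraries. For Csf1r it was 0.786 (rho = 0.833, exact permutation, p = 0.0207 and 0.0154, adjusted p = 0.0689 and 0.0513) and 0.766 without them. The coefficients of these genes kept their size, but 0 of the 10 genes had an adjusted p below 0.05 by r or by rho.

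Cd163 had r = 0.747 (rho = 0.786, exact permutation, p = 0.0325 and 0.0279, adjusted p = 0.0708 and 0.0698) and 0.942 without the 2 libraries farthest out. The C1q chains had r of 0.688 (C1qa), 0.733 (C1qb) and 0.705 (C1qc), with exact permutation adjusted p of 0.0708 each. Folr2 (r = 0.616) and Timd4 (r = 0.497) had exact permutation adjusted p of 0.123 and 0.222. Mertk had r = -0.611 (rho = -0.714, exact permutation, adjusted p = 0.123 and 0.0823), which fell to -0.345 without these libraries. With the epithelial markers alone, r was 0.572 for Mertk and -0.813 to -0.269 for the other macrophage genes. Among all genes tested, 9.90% had r above 0.7 with the score, as did 6 of the 10 macrophage genes. Csf1r did not increase evenly with the score. It was at 2237 to 2460.4 in all 5 libraries with a score of -0.15 or above, and its pooled coefficient mostly describes the step from the 3 libraries below. The relation was not tested within a genotype, and with the levels centred on the genotype means r was 0.760 for Csf1r, 0.880 for Cd163 and -0.559 for Mertk.

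A difference between the resident type and the pan-macrophage genes in this respect was not tested. With the smooth muscle markers alone, r was 0.476 to 0.811 for the 4 resident type genes and 0.593 to 0.762 for the 5 pan-macrophage genes other than Mertk. In normalized counts, the smooth muscle markers summed to between 142687 and 244816 in Penk-/- and 150823 and 234970 in Penk+/+ chimeras, and the summed epithelial markers from 326841 to 444853 and 410636 to 478523. All 6 markers of each list were measured in every library. All 6 epithelial markers had lower means in Penk-/- chimeras and 4 of the 6 smooth muscle markers higher means, with 0 of the 12 called. Of other cells, the 6 T cell markers all had lower means in Penk-/- chimeras, and the 4 adipocyte markers and the 4 mast cell markers that passed the filter all had higher means, with 0 called. The 5 enteric neuron markers and the 3 mesothelium markers all had lower means, also with 0 called. Their part in the values of the macrophage genes was not tested, and that of the tissue score was examined only by the fit that follows.

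**Figure D4:**
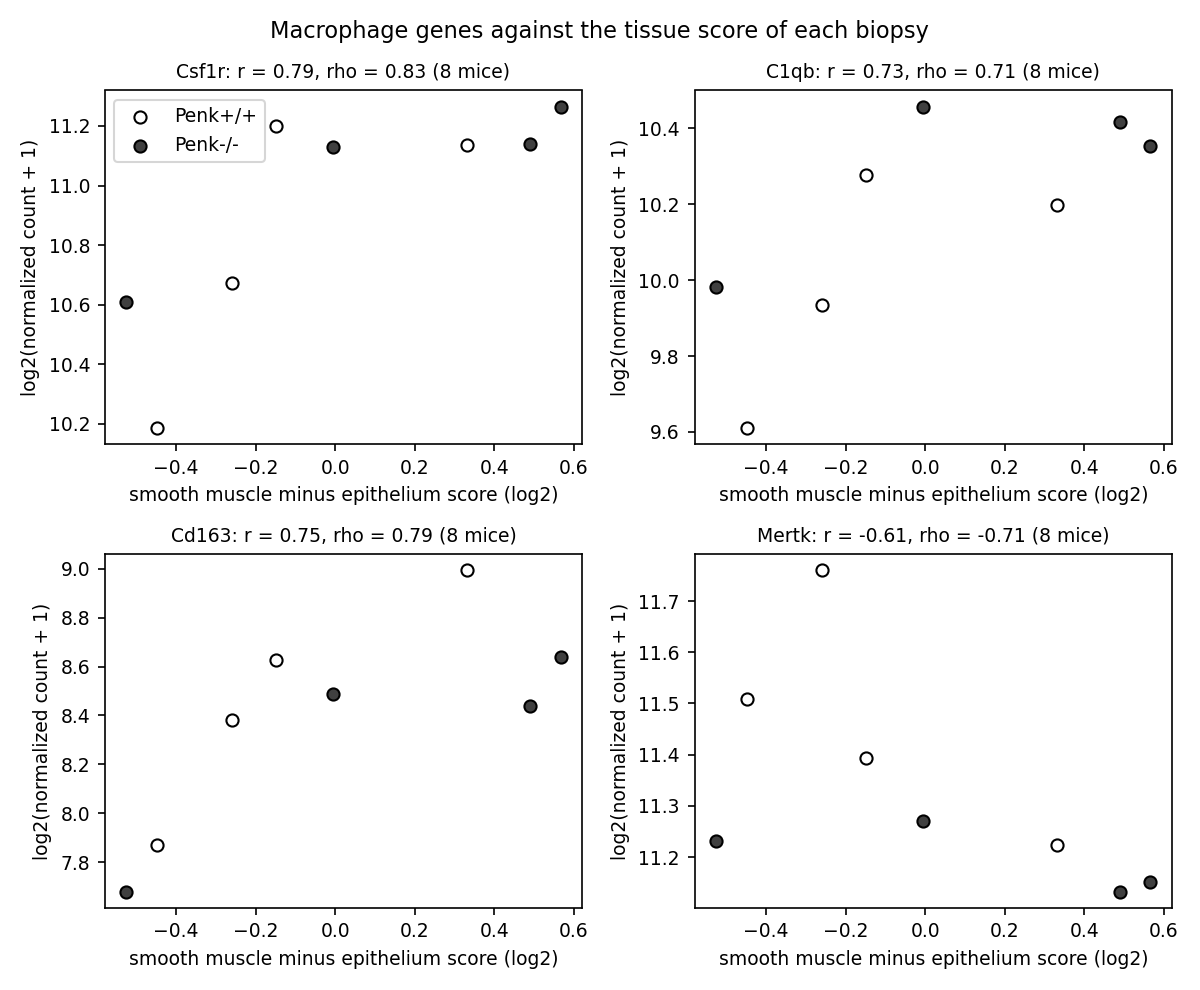
Log2(normalized count + 1) of Csf1r, C1qb, Cd163 and Mertk (y axes, not starting at 0) against the tissue score of the biopsy (x axis, log2) in Penk+/+ (open) and Penk-/- (filled) chimeras. Csf1r, C1qb and Cd163 are lowest in the libraries with the lowest scores, whereas Mertk is highest in Penk+/+ replicates 1 and 4, which have scores of -0.45 and -0.26.

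With the tissue score as a covariate in limma, the log2 fold changes of the pan-macrophage genes other than Mertk moved towards 0. Csf1r went from 0.24 to 0.05 and Adgre1 from 0.25 to 0.09, while C1qa, C1qb and C1qc went to 0.18, 0.19 and 0.16. Mertk remained at -0.22 (95% confidence interval -0.44 to 0.00, limma adjusted p = 0.463). Cd163 went from -0.16 to -0.40 (standard error 0.15, 95% confidence interval -0.75 to -0.05, limma adjusted p = 0.394), and Mrc1 turned to -0.05. Folr2 was at 0.25 and Timd4 at -0.60. The unadjusted p was below 0.05 for Cd163 only among the 10 genes, against 10.8% of all genes tested in this fit, and no macrophage gene was called.

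**Figure D5:**
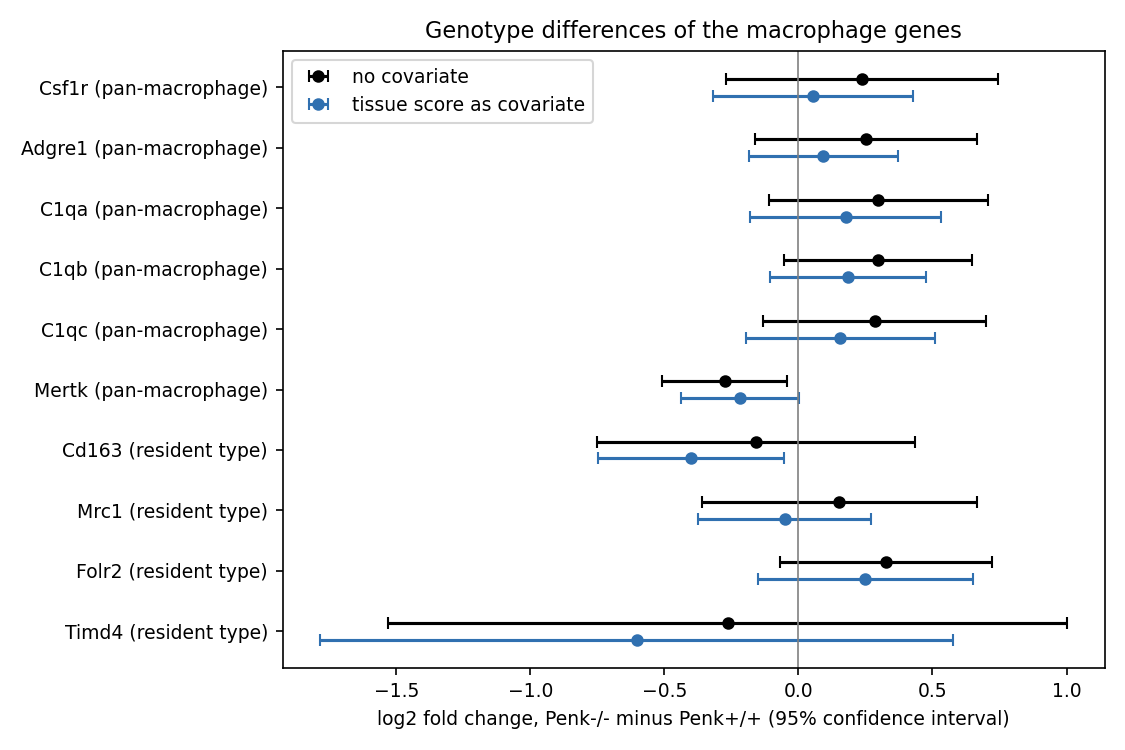
Log2 fold change of each macrophage gene, Penk-/- minus Penk+/+ (x axis), with 95% confidence intervals, from limma without a covariate (black) and with the tissue score of the biopsy as a covariate (blue). Without the covariate only the interval of Mertk excludes 0, and with it only that of Cd163, at -0.75 to -0.05.

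Genes listed beside the members gave a similar picture. Of 12 other pan-macrophage genes, 9 had higher and 3 lower means in Penk-/- chimeras, with a median log2 fold change of 0.14 and 0 called. Lyz2, the lysozyme of myeloid cells, had a log2 fold change of 0.19 (limma adjusted p = 0.744), and Ctss, a lysosomal protease with the highest count of the list, -0.19 (limma adjusted p = 0.688). The r of Ctss with the tissue score was -0.931, against a median of 0.66 for the list. The part of epithelium in the value of Ctss was not tested. Aif1, which encodes the calcium-binding protein IBA1, was higher in every Penk-/- than in every Penk+/+ mouse, as 5.63% of all genes separated the genotypes in one direction or the other. Aif1 had 146, 144, 142 and 146 normalized counts in Penk-/- and 124, 122, 124 and 118 in Penk+/+ replicates 1 to 4, a log2 fold change of 0.24 (limma adjusted p = 0.489). Its SD of 1.78 and 2.73 within the genotypes was below the 12.02 and 11.16 that counting alone would give, so the spread between these mice understates its error.

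Of 8 other genes of resident macrophages, 7 had higher means in Penk-/- chimeras and 0 were called. Stab1, a scavenger receptor, had a log2 fold change of 0.27 (limma adjusted p = 0.701), Lyve1, a hyaluronan receptor shared with lymphatic vessels, 0.18 (limma adjusted p = 0.724), and Vsig4, a complement receptor, 0.47 (limma adjusted p = 0.640). Their median r with the tissue score was 0.71. Mucosal macrophage genes, with the fractalkine receptor Cx3cr1 and genes of class II antigen presentation, had a median r of 0.01 with the score, 6 of 7 higher means in Penk-/- chimeras and 0 called. They were not alike, with r of 0.610 for Cx3cr1 and 0.688 for Itgax. For the class II genes (Cd74, H2-Aa, H2-Ab1 and H2-Eb1) r was -0.115 to 0.286, and for Cd14 it was -0.776. Class II genes are shared with B cells and dendritic cells, and the sum of 5 B cell markers went from 229 to 1498 in Penk-/- mice and from 212 to 1413 in Penk+/+ mice (normalized counts). Their part in these values was not tested.

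Among the ligands of CSF1R, Csf1 had a mean normalized count of 852 ± 146 in Penk-/- and 837 ± 229 in Penk+/+ mice, and Il34 of 351 ± 86.3 and 325 ± 83.4 (SD, n = 4 each). The monocyte-attracting chemokine Ccl2 was at 88.2 ± 22.3 and 60.5 ± 19.3 (log2 fold change 0.56, limma adjusted p = 0.582), and its receptor Ccr2 at 614 ± 80.2 and 564 ± 179. Of the 8 measured genes of this growth factor and recruitment list, 0 were called. The receptor chain Csf2ra alone had an unadjusted p below 0.05, which 9.63% of all genes tested had. Of the monocyte and neutrophil genes, 5 of 7 measured genes passed the filter and 0 were called. Plac8, the most abundant of them, was at 26818 ± 4715 normalized counts in Penk-/- against 36753 ± 5953 (SD, n = 4 each), with overlap, and was the 1 gene of the list with an unadjusted p below 0.05 (log2 fold change -0.46, limma adjusted p = 0.420). The r of Plac8 with the tissue score was -0.650, and the part of epithelium in its value was not tested. S100a8 and S100a9, abundant in neutrophils and fresh monocytes, were below the filter at 4.81 and 7.78 normalized counts on average in Penk-/- and 2.25 and 4.79 in Penk+/+ chimeras.

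Of 13 genes of dying cell uptake beside Mertk and Timd4, 9 had higher and 4 lower means in Penk-/- chimeras and 0 were called. The bridging protein of MERTK Gas6 was at 13708 ± 343 and 13872 ± 235 normalized counts, and the related receptor Axl at 2848 ± 621 and 2475 ± 603 (SD, n = 4 each). Pros1, another bridging protein, had 2177 ± 71.6 and 1933 ± 121 without overlap (log2 fold change 0.17, limma adjusted p = 0.443). It was the 1 gene of this list to separate the genotypes completely, as 5.63% of all genes tested did. Of 12 complement genes other than C1q, 8 had higher means and 0 were called, and their median r with the tissue score was 0.77.

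CD163 takes up haemoglobin, and of 6 genes of iron and haem handling 3 had higher and 3 lower means and 0 were called. Slc40a1, the iron exporter ferroportin, was at 18151, 13268, 11829 and 13140.4 in Penk-/- and 23892, 19202, 19776 and 25655 in Penk+/+ replicates 1 to 4. All Penk-/- values were lower, and 5.63% of all genes tested separated the genotypes in one direction or the other. The log2 fold change of Slc40a1 was -0.66 (standard error 0.14, limma adjusted p = 0.339). The ferritin gene Fth1 had a log2 fold change of -0.38 (limma adjusted p = 0.396) and the haem-degrading enzyme Hmox1 one of 0.34 (limma adjusted p = 0.501). Both genes and Slc40a1 had an unadjusted p below 0.05 with limma, as did 9.63% of all genes tested. The r of Slc40a1 with the tissue score was -0.693, and epithelium also carries this gene, so the part of epithelium in its value was not tested.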

How the data were processed

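Colonic biopsies of 8 chimeras (1 library per mouse) were sequenced as stranded, paired-end poly-A libraries. Per the labels and the study's methods, the authors aligned and counted reads with STAR 2.7.8a on GRCm39 and normalized them with DESeq2 1.30.0. The deposited signal values are normalized counts, that is, reads per gene scaled with 1 factor for every library. In 7 libraries (all but Penk-/- replicate 1) whole reads were recovered from the steps of the values. Penk-/- replicate 1 has a factor close to 1, and its reads by the same step serve for depth and counting error only.

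Values were converted to log2(value + 1), and 19127 genes with a mean of at least 10 entered limma 3.58.1 under R 4.3.3 (trended variance, two-sided, Benjamini-Hochberg adjustment over all genes). Single values were tested by exact permutation over 70 assignments, and correlations over 40320 pairings. The script was tested on simulated data. The members and lists were chosen with earlier results of these data known. The genes named are the members, the genes of the lists with the highest count or the smallest p, and those most like a member by r. Csf1, Il34, Ccr2, Axl, S100a8, S100a9 and the genes like Mertk were added after their values were seen. No p was computed over a list. The values of 1 listed gene are not reported here. Promoter sequences came from RefSeq (GRCm38.p6) and were located by exact match in GRCm39. Alternatives were other pseudocounts and filters, quantile normalization, a replicate block, the tissue score as covariate, libraries left out, and edgeR 4.0.16 and DESeq2 1.42.0 on the reads of 7 libraries. Python 3.11.15, scipy 1.17.1 and pandas 2.3.3 were used.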

Additional observations from a re-analysis of the deposited data

Results flagged for a closer look

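C1qc was low in Penk-/- replicate 1, with 1136 normalized counts and the other Penk-/- mice had 1450.1 to 1482. The gap to the nearest of them was 0.909 of the range of the group, above the tabulated 95% limit of Dixon's test for 4 samples. Among the 26 groups of 4 libraries examined this was the 1 so marked, where chance gives about 1 in 20 groups, or 1.3 here. This library also had the lowest tissue score (-0.53), and the part of that score in the value was not tested.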

How the results depend on the processing

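Of 19 other fits (18 for Timd4, which has a mean below 50), 7 of the 10 genes kept their direction in all (with sizes down to 0.03 for Csf1r, without Penk+/+ replicate 1), and none was called in any (lowest adjusted p of a member 0.197). Cd163, Mrc1 and Timd4 turned. Mrc1 was at -0.0517 with the tissue score as covariate, -0.0189 without the libraries highest in Pbsn, and from -0.0296 (without Penk+/+ replicate 1) to 0.30 with single mice left out. Cd163 was at 0.00613 with edgeR on 7 libraries and from -0.36 to 0.0530 with single mice left out. Timd4 was at 0.43 with edgeR and 0.42 with DESeq2 on the 7 libraries (DESeq2 gave it no adjusted p), and from -0.67 to 0.36 with single mice left out. The 7 libraries lack Penk-/- replicate 1. The count of all genes called was 1 with quantile normalization, 1 with the tissue score as covariate (Scnn1g), 5 with edgeR and 367 with DESeq2 on 7 libraries, and 0 to 6 with single mice left out, with 6 without Penk-/- replicate 1. The cause was not tested. Genes at an unadjusted p below 0.05 numbered 1383 to 2938. By exact permutation tests without adjustment, 0 to 1 member had a p below 0.05 with single mice left out. This was Mertk without Penk+/+ replicate 3, the Penk+/+ mouse within the Penk-/- range, so the genotypes then separated completely. The share of all genes that would do so was not computed. By Pearson's r after adjustment, 0 to 3 members were related to the tissue score. These were Csf1r, Adgre1 and Mrc1 without Penk+/+ replicate 2, and Adgre1 without Penk-/- replicate 1 or Penk+/+ replicate 4. By Spearman's rho these were Adgre1 and Mertk without Penk-/- replicate 1, Cd163 and Mrc1 without Penk-/- replicate 2, and Csf1r and Mrc1 without Penk+/+ replicate 2. The resident minus pan-macrophage difference ranged from -0.27 to 0.01. With the replicate number as a block, 1 gene of all was called and no member, and 2938 genes had an unadjusted p below 0.05, 6 members among them. Deviations of same-numbered mice correlated at 0.145, -0.0444, -0.321 and -0.162. The labels do not say whether the numbers pair the mice, and these few correlations cannot decide it. Depth limits only Timd4 and, in part, Folr2.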
